A study of Mus musculus with 11 samples.

Results

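The genes described here are 47 mouse antioxidant genes that build, recycle or use glutathione, remove superoxide and peroxides, or make and carry ascorbate. They come from a list of gene names and were matched by gene ID in 2 count tables, 1 of RNA with 24809 gene IDs and 1 of the histone mark H3K4me3 with 24541. All 47 were found in both. By role they fall into 18 glutathione transferases, 4 enzymes of glutathione synthesis and reduction, 12 peroxidases, 3 superoxide dismutases, 3 genes of the thioredoxin system, 4 genes of the NRF2 axis and 3 ascorbate genes.

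The cells were granulosa cells, the somatic cells that line the follicle around the oocyte, from ovaries of C57BL/6 mice, either left without treatment (0 h) or given equine chorionic gonadotropin (eCG) 48 h before collection. eCG acts on the FSH receptor in mice and the labels describe it as FSH, but no group received FSH itself. RNA was sequenced from 3 libraries per group, obtained by puncturing follicles and labelled postnatal day 21. H3K4me3 was measured by chromatin immunoprecipitation and sequencing (ChIP-seq) in 2 libraries per group, for which no age is labelled. All groups share the strain and the labelled cell type, and none carries a labelled allele. There was no untreated group at 48 h, so eCG and elapsed time cannot be told apart. The single input DNA library was not used here. The series calls the libraries of a group biological replicates, without saying how many animals each holds.

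Glutathione is made from glutamate, cysteine and glycine, and glutamate-cysteine ligase sets the rate. Glutathione transferases join it to reactive compounds, while glutathione peroxidases and peroxiredoxins spend glutathione or thioredoxin to reduce peroxides. NRF2, encoded by Nfe2l2, switches on many of these genes when KEAP1 no longer marks it for breakdown, and binds a motif known as the antioxidant response element. Mice, unlike humans, can make ascorbate, with Gulo as the last enzyme of the pathway. The ovary is known to hold much ascorbate.

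The RNA libraries held 12013849 to 26343971 counts each and the H3K4me3 libraries 11989769 to 17968033. Levels are given as normalised read counts (CPM, scaled to library size), and a fold change is 48 h over 0 h on the log2 scale with its standard error (SE). Of 12 granulosa marker genes, all were detected, and their summed level was 23102 to 29047 CPM at 0 h and 53352 to 55349 CPM at 48 h. Markers of other cells moved too. The summed level of 12 endothelial markers was 132 to 140 CPM at 0 h and 781, 251 and 313 CPM in 48 h replicates 1, 2 and 3, and 11 of the 12 rose. That of 8 measured red blood cell markers was 69.2 to 131 CPM at 0 h and 550, 167 and 694 CPM at 48 h. Of these 8, 4 rose, and the globin genes Hba-a1, Hba-a2, Hbb-bs and Hbb-bt had a count of 0 in every RNA library. The 12 oocyte markers summed to 83.3 to 91.1 CPM at 0 h and 88.3, 40.5 and 42.2 CPM at 48 h, where 1 rose and 4 fell. The 12 theca markers summed to 4298 to 5834 CPM at 0 h and 9552 to 12717 CPM at 48 h, and 4 rose and 2 fell. Most of that sum came from Hsd3b1, which rose from 2429 to 3447 CPM at 0 h to 6985 to 7102 CPM at 48 h. Hsd3b1 and Lhcgr, 2 of the 4 that rose, are known in stimulated granulosa cells too. Ptch1 and Gli1 fell and Cyp17a1 did not pass. Of the 12 theca markers, 9 had a log2 fold change above 0, and the median was 0.61. Thus 48 h replicate 1 held the most endothelial, smooth muscle and theca marker RNA of the 6 libraries. In bulk samples, fewer cells of a type and less RNA per cell cannot be told apart.

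In RNA, 45 of the 47 genes passed the filter on low counts. Of these, 25 passed edgeR's quasi-likelihood test at a Benjamini-Hochberg adjusted p under 0.05, against 31.8% of all 14401 genes tested. Of the 25, 19 rose, where 16.0% of all genes rose, and 6 fell, where 15.8% of all genes fell. Over the fits without 1 library, 11 (without 0 h replicate 3) to 25 rose and 4 to 7 fell, with 12 that rose without 0 h replicate 2, while 2882 to 5345 genes were called in all. The median log2 fold change was 0.34 over the 45 genes and -0.03 over all genes. The values of the 0 h and 48 h libraries did not overlap for 31 of the 45, against 47.9% of all genes. Among the 19 genes that rose, 0 h replicate 1 was the highest 0 h library in 15, so it lay nearest to the 48 h libraries. When libraries were scaled by total count alone, 26.8% of all RNA calls were rises instead of 50.2%, and in H3K4me3 52.3% instead of 75.4%. Of the called genes among the 47, 0 changed sign. In RNA that scaling lost 5 calls that rose (Gstp1, Sod2, Txn1, Prdx4 and Prdx5) and gained 2 that fell (Prdx6 and Gstz1). In H3K4me3, all 47 genes were tested and 9 passed, against 8.42% of 24476 genes. Of these 9, 5 rose (6.35% of all genes) and 4 fell (2.08% of all genes). DESeq2 called 2 of the 47 higher and 2 lower, and 864 genes in all. Without 1 library, 2 to 6 of the 47 were higher and 1 to 7 lower, and genes called in all numbered 282 (without 0 h replicate 1) to 2764. The H3K4me3 libraries did not overlap between groups for 30 of the 47, against 49.3% of all genes.

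**Figure D1:**
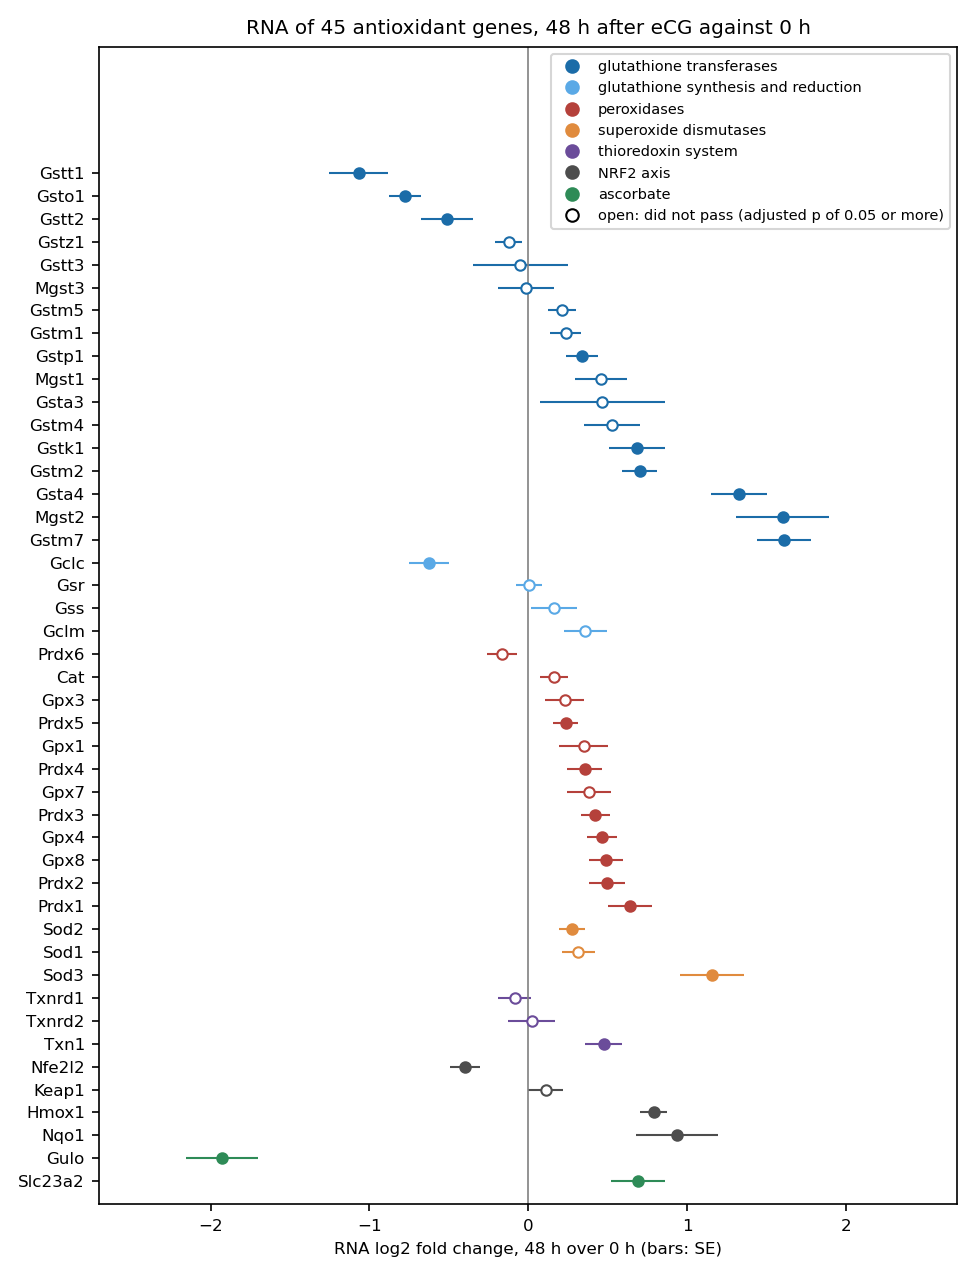
RNA log2 fold changes of the 45 tested genes (x axis; bars are the SE) by role, with filled points for genes that passed the test and open points for those that did not. The 12 peroxidases lie between -0.17 and 0.64, while the glutathione transferases spread from -1.07 to 1.61 and Gulo lies lowest at -1.93.

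The glutathione transferases moved in both directions. Of 18, 17 were tested in RNA. Of these, 6 rose (35.3%, against 16.0% of all genes), 3 fell (17.6%, against 15.8%) and 8 did not pass. The median log2 fold change was 0.34. Those that rose were the alpha class gene Gsta4, the mu class genes Gstm2 and Gstm7, the pi class gene Gstp1, the kappa class gene Gstk1 and the membrane-bound Mgst2. Those that fell were the theta class genes Gstt1 and Gstt2 and the omega class gene Gsto1.

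Gsta4 (gene ID 14860; chr9:78191966-78209349 in GRCm38.p6) encodes a transferase known for clearing 4-hydroxynonenal, a product of lipid peroxidation. It stood at 105, 75.0 and 65.9 CPM in 0 h replicates 1 to 3 and at 175, 234 and 205 CPM in 48 h replicates 1 to 3. Every 48 h library was above every 0 h library. The means were 81.9 ± 20.3 and 205 ± 29.6 CPM (SD, n = 3 in each group). The log2 fold change was 1.33 ± 0.18 (edgeR's quasi-likelihood test, adjusted p = 0.00118). Its H3K4me3 count also rose, from 48.7 and 42.5 CPM to 60.2 and 71.9 CPM (log2 0.53 ± 0.08, adjusted p = 6.47e-06 by the same test).

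The mu class genes lie side by side on chromosome 3, and their RNA did not move alike. Gstm7 (gene ID 68312; chr3:107926334-107931877) had 23.7, 16.4 and 14.2 CPM at 0 h and 52.4, 57.7 and 54.9 CPM at 48 h. That is a log2 fold change of 1.61 ± 0.17 (adjusted p = 4.77e-04), with no overlap between groups. Its H3K4me3 count, 9.98 and 6.40 CPM at 0 h and 9.12 and 9.54 CPM at 48 h, overlapped between groups and did not pass (log2 0.17 ± 0.18). Gstm2 (gene ID 14863; chr3:107981702-107986420) had 205, 163 and 164 CPM at 0 h and 281, 292 and 291 CPM at 48 h. It rose by a log2 fold change of 0.70 ± 0.11 (adjusted p = 0.00218), again without overlap. The H3K4me3 count of Gstm2 rose from 26.4 and 20.6 CPM to 30.1 and 34.3 CPM (log2 0.44 ± 0.10, adjusted p = 0.0024), a call that DESeq2 did not make and that ended without 0 h replicate 2 (adjusted p from 2.3e-05 to 0.174 over 9 alternatives). The neighbours Gstm1, Gstm4 and Gstm5 did not pass in RNA, with log2 fold changes of 0.24 ± 0.10, 0.53 ± 0.18 and 0.21 ± 0.09, nor in H3K4me3. Gstm6, which lies in the same cluster and is not among the 47, went from 5.28 ± 1.95 to 22.9 ± 2.26 CPM (log2 2.13 ± 0.23, adjusted p = 5.12e-04). Reads of such close copies could be split between them by the counting, so a value of a single mu class gene is uncertain.

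**Figure D2:**
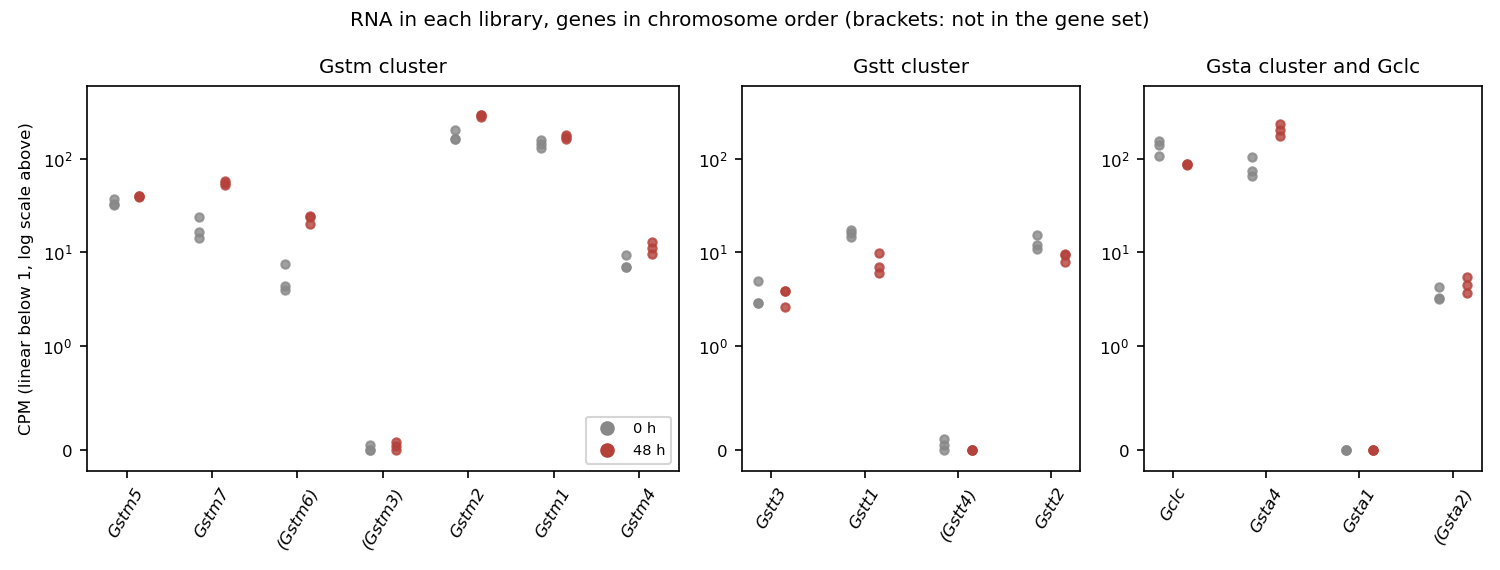
RNA levels in each library (y axis, CPM, linear below 1 and logarithmic above) for the mu, theta and alpha transferase clusters, with genes in chromosome order and genes outside the set in brackets. The alpha panel also holds Gclc, which is no transferase and lies apart from the cluster (chr9:77754535-77794489, with Gsta4 at chr9:78191966-78209349). Gstm7 and Gstm6 separate between 0 h and 48 h while Gstm5 and Gstm1 lie close. Gclc falls and Gsta4 rises.

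The largest called H3K4me3 changes among genes with a RefSeq promoter were those of Gsto1, Gstm2, Keap1 and Slc23a2, so the sequence before each gene start is shown where the gene is described. Each is 150 bases, 5′ to 3′ on the gene's strand, from RefSeq (GRCm38.p6), with CG dinucleotides in capitals. That of Gstm2 (chr3:107986421-107986570, minus strand) holds 2 CG dinucleotides, and that of Gsto1 (chr19:47854823-47854972, plus strand) holds 11.
Gstm2: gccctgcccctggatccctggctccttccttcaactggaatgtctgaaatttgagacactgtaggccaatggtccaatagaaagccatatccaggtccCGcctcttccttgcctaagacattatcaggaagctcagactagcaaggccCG
Gsto1: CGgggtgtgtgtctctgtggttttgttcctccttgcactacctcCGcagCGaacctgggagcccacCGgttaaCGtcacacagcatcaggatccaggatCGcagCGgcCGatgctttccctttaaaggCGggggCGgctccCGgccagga
The median RefSeq window of 300 bases held 14.5 CG dinucleotides over the 38 genes that have one and 7 over 27025 genes in all.

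Gsto1 (gene ID 14873; chr19:47854973-47864790), whose product reduces dehydroascorbate back to ascorbate, fell in both assays. Its RNA was 34.1, 31.2 and 30.6 CPM at 0 h and 20.6, 17.6 and 17.9 CPM at 48 h (log2 -0.78 ± 0.10, adjusted p = 0.00114). Its H3K4me3 count was 36.2 and 36.7 CPM at 0 h and 25.9 and 27.0 CPM at 48 h (log2 -0.46 ± 0.09, adjusted p = 2.64e-04). In neither assay did the groups overlap. The neighbouring Gsto2, whose H3K4me3 count was of like size, stayed at 29.3 and 30.9 CPM at 0 h and 29.5 and 30.4 CPM at 48 h and did not pass. The H3K4me3 call of Gsto1 was lost without 0 h replicate 1 (adjusted p from 3.64e-05 to 0.0828 over 9 alternatives).

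Of the 3 theta class genes, Gstt1 and Gstt2 fell in RNA. Gstt1 (gene ID 14871; chr10:75783813-75798584) had 17.4, 16.3 and 14.7 CPM at 0 h and 9.97, 7.04 and 6.10 CPM at 48 h (log2 -1.07 ± 0.19, adjusted p = 0.00353). Gstt2 (chr10:75831842-75837419) had 10.99, 15.2 and 12.1 CPM at 0 h and 9.74, 9.32 and 7.84 CPM at 48 h (log2 -0.51 ± 0.16, adjusted p = 0.0437). Neither gene's libraries overlapped between groups. Gstt3 of the same cluster was between 2.60 and 4.89 CPM in all 6 libraries and did not pass. The theta class genes did not pass in H3K4me3, where log2 fold changes were -0.19 ± 0.08 for Gstt1 and -0.15 ± 0.08 for Gstt2.

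Among the other transferases, Mgst2 (gene ID 211666; chr3:51636912-51682675), a membrane enzyme that can join glutathione to leukotriene A4, had 4.56, 3.36 and 3.06 CPM at 0 h and 15.2, 7.20 and 11.1 CPM at 48 h. It rose by a log2 fold change of 1.60 ± 0.29 (adjusted p = 0.00434), and 48 h replicate 1 was the highest library. Without that library the log2 fold change was 1.31. Gstk1, an enzyme of mitochondria and peroxisomes, had 11.9, 10.1 and 10.03 CPM at 0 h and 21.7, 14.6 and 15.2 CPM at 48 h (log2 0.68 ± 0.17, adjusted p = 0.0181), also highest in 48 h replicate 1. Gstp1 rose from 55.2 ± 7.09 to 69.7 ± 1.81 CPM (log2 0.34 ± 0.10, adjusted p = 0.0333), and its close copy Gstp2 was at 0.0988 to 0.707 CPM. Mgst1 was 196 ± 18.2 CPM at 0 h and 269 ± 65.6 CPM at 48 h and did not pass in RNA (log2 0.46 ± 0.16, adjusted p = 0.06), whereas its H3K4me3 count fell from 129 ± 0.198 to 112 ± 3.76 CPM (SD, n = 2 per group; log2 -0.21 ± 0.07, adjusted p = 0.0484 by edgeR's quasi-likelihood test). Gsta3, Gstz1, which degrades tyrosine breakdown products, and Mgst3 did not pass in either assay. Gsta1 had a count of 0 in all 6 RNA libraries and was not tested there, a count that allows up to 0.114 to 0.25 CPM depending on the library, for counting error only. Its close copy Gsta2 was between 3.22 and 5.52 CPM.

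In RNA, the calls of Gstp1 and Gstt2 were lost in 6 and 7 of 11 alternatives, among them leaving out replicate 2 or 3 of either time. That of Gstk1 was lost without 0 h replicate 2 or 0 h replicate 3. The H3K4me3 call of Mgst1 was lost in 7 of 9 alternatives, including without any 1 of the 4 libraries.

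In glutathione synthesis and reduction, 1 of 4 genes passed in RNA (25.0%, against 31.8% of all genes) and it fell (15.8% of all genes fell). Gclc (gene ID 14629; chr9:77754535-77794489), the catalytic subunit of glutamate-cysteine ligase, had 108, 142 and 154 CPM at 0 h and 89.1, 87.5 and 86.6 CPM at 48 h. All 48 h libraries were below all 0 h libraries, with means of 135 ± 23.8 and 87.7 ± 1.28 CPM (log2 -0.62 ± 0.13, adjusted p = 0.00675). Gclm (gene ID 14630; chr3:122245487-122267215), the modifier subunit that binds Gclc's product, had 45.1, 31.7 and 34.9 CPM at 0 h and 43.1, 49.6 and 50.4 CPM at 48 h. Here 0 h replicate 1 was above 48 h replicate 1, and the gene did not pass (log2 0.36 ± 0.14, adjusted p = 0.0757), although it did with DESeq2, without 0 h replicate 1 and without 48 h replicate 1 (adjusted p from 0.014 to 0.263 over 11 alternatives). Gss, which adds the glycine, and Gsr, which reduces oxidised glutathione, did not pass, with log2 fold changes of 0.16 ± 0.14 and 0.01 ± 0.08. In H3K4me3, 0 of the 4 passed by edgeR's test or DESeq2 and 1, Gclm, had an unadjusted p under 0.05. Gclc there had 81.5 and 89.1 CPM at 0 h and 81.2 and 84.3 CPM at 48 h. The H3K4me3 count of Gss was of like size to that of its neighbour Acss2, so the values of this pair may hold the same reads.

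Of 28 other glutathione genes, 19 were tested in RNA. Of these, 7 rose (36.8%, against 16.0% of all genes), 1 fell (5.26%, against 15.8%) and 11 did not pass. The median log2 fold change was 0.20. Besides Gstm6, those past a log2 fold of 1 were Ggt5, from 6.60 ± 1.47 to 15.1 ± 6.02 CPM (log2 1.178 ± 0.283), and Ggt7, from 6.23 ± 0.578 to 13.6 ± 2.15 CPM (log2 1.13 ± 0.16). Both belong to the family of gamma-glutamyltransferases, which split extracellular glutathione. In H3K4me3, 1 of the 28 rose, Gstm6 (3.57%, against 6.35% of all genes), and DESeq2 called 0 of them higher. The H3K4me3 log2 fold change of Gstm6 was 0.72 ± 0.24 (edgeR's quasi-likelihood test, adjusted p = 0.0475), close to the threshold. Its mean H3K4me3 count in each group was below 17.5 CPM, the 95th percentile over genes with no RNA count.

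**Figure D3:**
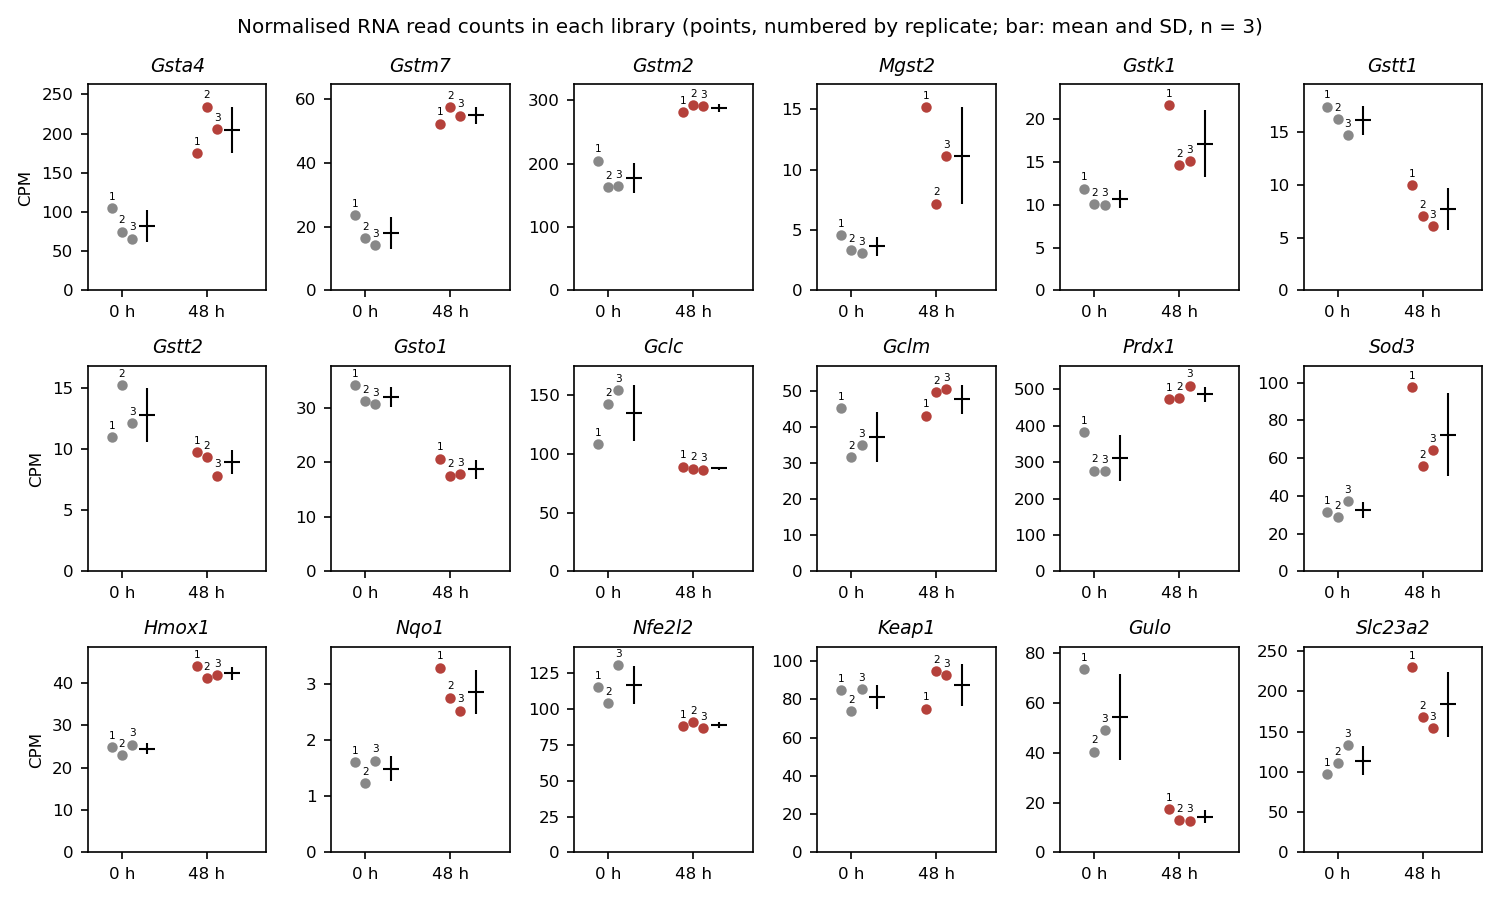
RNA levels (y axis, CPM from 0) of 18 genes in each library, with points numbered by replicate and a bar for the mean and SD of 3 libraries. Groups do not overlap in any panel except Gclm and Keap1, and 48 h replicate 1 is the highest library for Mgst2, Gstk1, Sod3, Slc23a2, Hmox1 and Nqo1.

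The peroxidases that passed all rose, by log2 fold changes of 0.24 to 0.64. Of 12, 7 rose by edgeR's test (58.3%, against 16.0% of all genes), 0 fell (against 15.8%) and 5 did not pass. The median log2 fold change was 0.37. The count that fell was also 0 at an unadjusted p under 0.05 and with DESeq2. They include 5 of the 6 peroxiredoxins, which reduce peroxides with thioredoxin or glutathione. Prdx1 (gene ID 18477; chr4:116685599-116700000), a peroxiredoxin of the cytosol, had 383, 276 and 275 CPM at 0 h and 472, 475 and 510 CPM at 48 h. No 48 h library was below a 0 h library (log2 0.64 ± 0.14, adjusted p = 0.00918). The cytosolic Prdx2 rose from 246 ± 32.3 to 346 ± 14.4 CPM (log2 0.50 ± 0.11) and the mitochondrial Prdx3 from 85.8 ± 7.43 to 115 ± 7.29 CPM (log2 0.42 ± 0.09). Prdx4, of the endoplasmic reticulum, rose from 153 ± 19.7 to 195 ± 13.8 CPM (log2 0.35 ± 0.11), and Prdx5 from 59.7 ± 3.58 to 70.3 ± 0.348 CPM (log2 0.24 ± 0.08). Prdx6, which uses glutathione and lacks the second cysteine of the others, had 126 ± 13.3 CPM at 0 h and 112 ± 3.94 CPM at 48 h and did not pass (log2 -0.17 ± 0.09, adjusted p = 0.211).

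Among the glutathione peroxidases, Gpx4, known for reducing lipid hydroperoxides in membranes, rose from 168 ± 13.9 to 232 ± 11.2 CPM (log2 0.46 ± 0.09, adjusted p = 0.00664). Gpx8, of the endoplasmic reticulum, rose from 45.1 ± 5.43 to 63.2 ± 4.59 CPM (log2 0.49 ± 0.11, adjusted p = 0.01). It overlaps Cdc20b, whose reads may not be told apart from its own. Gpx1, Gpx7 and the secreted Gpx3 had log2 fold changes of 0.35 ± 0.16, 0.38 ± 0.14 and 0.23 ± 0.12 and did not pass, nor did catalase (Cat), at 84.4 ± 6.78 and 94.6 ± 5.34 CPM (log2 0.17 ± 0.09).

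In H3K4me3 0 of the 12 peroxidases rose, by edgeR's test, at an unadjusted p under 0.05 or with DESeq2, and Gpx1 fell by edgeR's test but not with DESeq2. Its count was 72.5 and 74.1 CPM at 0 h and 61.1 and 63.0 CPM at 48 h (log2 -0.24 ± 0.07, adjusted p = 0.0262), with no overlap. The 7 peroxidases that rose in RNA had H3K4me3 log2 fold changes from -0.13 for Gpx8 to 0.06 for Prdx1, and did not pass. The H3K4me3 count of Prdx5 was of like size to that of its neighbour Trmt112, and that of Prdx1 to that of AV051173, with which each also overlaps.

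In RNA, the call of Prdx2 was lost without 0 h replicate 3. Those of Prdx4 and Prdx5 were each lost in 7 of 11 alternatives, among them leaving out replicate 2 or 3 of either time and scaling by library size alone, and for Prdx4 also leaving out 48 h replicate 1. The H3K4me3 call of Gpx1 was lost in 5 of 9 alternatives, including without either 0 h library or without 48 h replicate 1.

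The superoxide dismutases turn superoxide into hydrogen peroxide, and 2 of the 3 rose in RNA (66.7%, against 16.0% of all genes). Sod3 (gene ID 20657; chr5:52363804-52369738), the secreted form, had 31.4, 28.7 and 37.3 CPM at 0 h and 97.5, 55.6 and 64.1 CPM at 48 h. The groups did not overlap, and 48 h replicate 1 was the highest (log2 1.15 ± 0.20, adjusted p = 0.00358). Without that library the log2 fold change was 0.88. The mitochondrial Sod2 rose from 59.3 ± 1.94 to 71.8 ± 4.95 CPM (log2 0.28 ± 0.08, adjusted p = 0.0324). The cytosolic Sod1 was 241 ± 28.5 CPM at 0 h and 300 ± 14.3 CPM at 48 h, just short of the threshold (log2 0.32 ± 0.11, adjusted p = 0.051). In H3K4me3 0 passed by edgeR's test, at an unadjusted p under 0.05 or with DESeq2, with log2 fold changes from -0.04 to 0.08, and the count of Sod1 was of like size to that of its neighbour Scaf4. The RNA call of Sod2 was lost in 5 of 11 alternatives, including without replicate 2 or 3 at 0 h or without 48 h replicate 3.

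In the thioredoxin system, 1 of 3 genes rose in RNA (33.3%, against 16.0% of all genes). Txn1, the small protein that passes electrons to peroxiredoxins, rose from 134 ± 20.1 to 186 ± 11.2 CPM (log2 0.48 ± 0.12, adjusted p = 0.015), a call lost when libraries were scaled by size alone and without 0 h replicate 2 or 0 h replicate 3. The reductases that recharge thioredoxin did not pass, with 160 ± 10.99 and 151 ± 16.7 CPM for Txnrd1 of the cytosol and 36.1 ± 5.64 and 36.6 ± 6.03 CPM for Txnrd2 of mitochondria. In H3K4me3 0 of the 3 passed by edgeR's test or DESeq2 and 1, Txn1, had an unadjusted p under 0.05. Txnrd1 there had 0.96 to 1.79 CPM in the 4 libraries. Of 10 other thioredoxin genes, 0 rose in RNA by edgeR's test or DESeq2 (1 at an unadjusted p under 0.05). By edgeR's test 4 fell (40.0%, against 15.8% of all genes) and 6 did not pass. The median log2 fold change was -0.10. Those that fell were Txnip, which binds and inhibits thioredoxin (log2 -0.67 ± 0.13), Txnrd3 (-0.61 ± 0.11), Sesn1 (-0.80 ± 0.10) and Ccs, the copper chaperone of Sod1 (-0.33 ± 0.09). In H3K4me3, Txnip fell (log2 -0.37 ± 0.07) and Srxn1, which restores over-oxidised peroxiredoxins, rose (log2 0.46 ± 0.09).

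In the NRF2 axis, the RNA of the factor fell while that of its known targets Hmox1 and Nqo1 rose. Nfe2l2 (gene ID 18024; chr2:75675513-75704663) had 115, 104 and 131 CPM at 0 h and 87.8, 90.9 and 86.7 CPM at 48 h. All 48 h libraries were below all 0 h libraries (log2 -0.40 ± 0.10, adjusted p = 0.0144). Hmox1 (gene ID 15368; chr8:75093618-75100593), which breaks down haem, had 24.9, 23.0 and 25.5 CPM at 0 h and 44.0, 41.1 and 41.9 CPM at 48 h (log2 0.79 ± 0.09, adjusted p = 5.38e-04). Nqo1 (gene ID 18104; chr8:107388225-107403205), a quinone reductase, was low, with 1.61, 1.24 and 1.64 CPM at 0 h and 3.30, 2.76 and 2.53 CPM at 48 h (log2 0.94 ± 0.26, adjusted p = 0.0246). Neither target's groups overlapped. The NRF2 targets Gclc, which fell, Gclm and Txnrd1, which did not pass, were described above.

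Keap1 (gene ID 50868; chr9:21229730-21239332), the adaptor that marks NRF2 for breakdown, had 84.7, 73.9 and 85.1 CPM at 0 h and 75.1, 94.8 and 92.7 CPM at 48 h. Its groups overlapped and it did not pass in RNA (log2 0.11 ± 0.11, adjusted p = 0.475). Its H3K4me3 count rose, from 92.4 and 91.6 CPM to 120 and 108 CPM (log2 0.31 ± 0.07, adjusted p = 0.00287). That of Hmox1 rose from 34.7 and 32.3 CPM to 40.5 and 39.6 CPM (log2 0.25 ± 0.08, adjusted p = 0.0433), while Nfe2l2, with 129 and 134 CPM at 0 h and 125 CPM in each 48 h library, did not pass. Before the start of Keap1 (chr9:21239333-21239482, minus strand) the 150 bases hold 8 CG dinucleotides, in capitals.
Keap1: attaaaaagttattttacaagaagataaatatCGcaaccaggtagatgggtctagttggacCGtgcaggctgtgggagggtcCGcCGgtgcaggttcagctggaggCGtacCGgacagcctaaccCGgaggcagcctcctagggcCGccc
The RNA call of Nqo1 was lost in 6 of 11 alternatives, among them leaving out replicate 2 or 3 at 0 h or any 48 h library. That of Nfe2l2 was lost without 0 h replicate 3 or 48 h replicate 3. The H3K4me3 call of Hmox1 was lost in 8 of 9 alternatives, including without either 0 h library or without 48 h replicate 1. That of Keap1 was lost without 0 h replicate 1 or 48 h replicate 1.

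Because NRF2 binds the antioxidant response element, the RefSeq promoter windows, 250 bases before to 50 bases after a RefSeq start, were searched on both strands for its core, TGACNNNGC. It occurred in windows of 9 of the 38 genes that have one (23.7%), against 14.0% of 27025 genes and 12.4% of 32851 windows. The 9 were Gclm, Gsta3, Gstm5, Gstm7, Mgst1, Nfe2l2, Prdx1, Sod1 and Txnrd1. Of these, Gstm7 and Prdx1 rose in RNA, Nfe2l2 fell, and the other 6 did not pass. Of all genes tested in RNA, 16.0% rose and 15.8% fell. Nqo1, which rose in RNA, had a window without a match. Hmox1, Gclc, Gsta4, Gulo, Sod3, Gsr, Prdx6, Gstt2 and Slc23a1 had no RefSeq window and were not searched. Whether they hold a match is therefore not known here. The matches of Gstm7, Prdx1, Nfe2l2 and Gclm are shown as examples of each outcome, 29 bases each, 5′ to 3′ on the strand of the match, with the match in capitals.
Gstm7: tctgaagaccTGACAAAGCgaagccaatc
Prdx1: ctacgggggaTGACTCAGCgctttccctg
Nfe2l2: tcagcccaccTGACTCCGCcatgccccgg
Gclm: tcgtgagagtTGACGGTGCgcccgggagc
They lie at chr3:107931725-107931753, chr4:116685456-116685484, chr2:75704885-75704913 and chr3:122245413-122245441 in GRCm38.p6. A gene can have several RefSeq starts, which need not be the end of its printed span, and the match of Gstm7 lies inside that span while the other 3 lie before it. The match in Prdx1 also contains the core of an AP-1 site, TGACTCA. With the wider motif TGANNNNGC, the share of the 38 genes with a match was close to that of all genes. A match is a description of letters, and no binding was measured.

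Of 12 other NRF2 axis genes, all tested in RNA, 4 rose, 4 fell and 4 did not pass, with a median log2 fold change of 0.05. Rises and falls were each 33.3%, against 16.0% and 15.8% of all genes. The 4 that rose were Nfe2l1, a relative of NRF2 (log2 0.50 ± 0.10), Hmox2 (0.52 ± 0.11), Rbx1 of the ubiquitin ligase (0.38 ± 0.11) and Sqstm1, which binds KEAP1 (0.33 ± 0.09). The 4 that fell were the small Maf partners Maff (-0.71 ± 0.19) and Mafk (-0.61 ± 0.11) and the repressors Bach1 (-0.33 ± 0.09) and Bach2 (-1.12 ± 0.27). Bach2 was 5.54 ± 1.63 CPM at 0 h and 2.55 ± 0.173 CPM at 48 h. In H3K4me3, Mafg rose (log2 0.40 ± 0.08) and Mafk fell (log2 -0.57 ± 0.07).

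Of the ascorbate genes, the synthetic enzyme fell and 1 transporter rose. Gulo (gene ID 268756; chr14:65986786-66009254), which makes the last step of ascorbate synthesis and is best known from liver, had 73.5, 40.4 and 49.2 CPM at 0 h and 17.3, 12.8 and 12.7 CPM at 48 h. The highest 48 h library was below the lowest 0 h library. The means were 54.4 ± 17.1 and 14.3 ± 2.63 CPM, a fall with a log2 fold change of -1.93 ± 0.23 (adjusted p = 7.28e-04), or 3.81-fold lower at 48 h. Its H3K4me3 count fell as well, from 16.0 and 13.7 CPM to 7.38 and 6.57 CPM (log2 -1.10 ± 0.16, adjusted p = 1.19e-06), and in each assay its fold change was the lowest among the 45 of these genes tested in RNA and the 47 in H3K4me3. Both calls held in all 11 RNA and all 9 H3K4me3 alternatives.

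Slc23a2 (gene ID 54338; chr2:132052496-132145320), which carries ascorbate into cells with sodium, had 97.5, 111 and 133 CPM at 0 h and 230, 168 and 154 CPM at 48 h. The groups did not overlap, and 48 h replicate 1 was the highest (log2 0.69 ± 0.17, adjusted p = 0.0144). Without that library the log2 fold change was 0.50. Its H3K4me3 count rose from 70.9 and 75.4 CPM to 95.2 and 81.1 CPM (log2 0.27 ± 0.08, adjusted p = 0.0153), a call that ended without 0 h replicate 1, without 48 h replicate 1 and in DESeq2 (adjusted p from 1.45e-04 to 0.514 over 9 alternatives). Before its start (chr2:132145321-132145470, minus strand) the 150 bases hold 9 CG dinucleotides, in capitals.
Slc23a2: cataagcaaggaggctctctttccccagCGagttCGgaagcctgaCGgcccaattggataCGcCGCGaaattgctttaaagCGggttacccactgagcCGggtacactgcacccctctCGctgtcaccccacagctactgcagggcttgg
Slc23a1, the other sodium-dependent ascorbate carrier, had 6, 99 and 20 reads at 0 h and 4, 11 and 2 reads at 48 h and was removed by the filter on low counts. It overlaps Paip2, and 0 h replicate 2 held most of its reads. Where an alternative tested it, its log2 fold change was -3.14 to -2.45 with an adjusted p of 0.0099 to 0.141. Of 7 other ascorbate genes, 3 rose in RNA (42.9%, against 16.0% of all genes) and 4 did not pass. By edgeR's test, DESeq2 or an unadjusted p under 0.05, 0 fell. The median log2 fold change was 0.21. The 3 were Slc2a1, a glucose carrier that also takes up dehydroascorbate (49.2 ± 3.98 to 99.5 ± 8.90 CPM, log2 1.02 ± 0.10), Slc2a8 (log2 0.41 ± 0.13) and Akr1a1, an earlier enzyme of ascorbate synthesis (log2 0.41 ± 0.10).

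Set side by side, the calls of both assays had no opposite directions by edgeR's test with TMM scaling, the filter on low counts, all libraries and no replicate block. Gsta4, Gstm2, Hmox1 and Slc23a2 rose in RNA and in H3K4me3, and Gulo and Gsto1 fell in both. The other 15 genes that rose in RNA and 4 that fell did not pass in H3K4me3. Keap1 rose, and Mgst1 and Gpx1 fell, in H3K4me3 alone, and whether their RNA and H3K4me3 changes differ was not tested. With no filter beyond 1 count, Mgst1 was called higher in RNA and lower in H3K4me3. Its RNA was also called higher with DESeq2 and with the replicate block. Without each assay's own 48 h replicate 2, which are libraries with an unpaired number, Gpx1 and Gpx8 were called higher in RNA and lower in H3K4me3. Of the 20 genes that did not pass in RNA, 10 passed in some alternative, and of the 38 in H3K4me3, 5 did. For scale, the 95th percentile of the H3K4me3 count over 5129 genes with no RNA count in any library was 17.5 CPM. The mean H3K4me3 count was below it for 12 of the 47: Gsta1, Gsta3, Gstm7, Gstt3, Gstk1, Mgst2, Gpx4, Sod3, Txnrd1, Nqo1, Gulo and Slc23a1. Of these, Gstm7, Gstk1, Mgst2, Gpx4, Sod3 and Nqo1 rose in RNA. The window counted for each gene is not given in the sources used here, so a low count need not be that of the promoter in use.

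**Figure D4:**
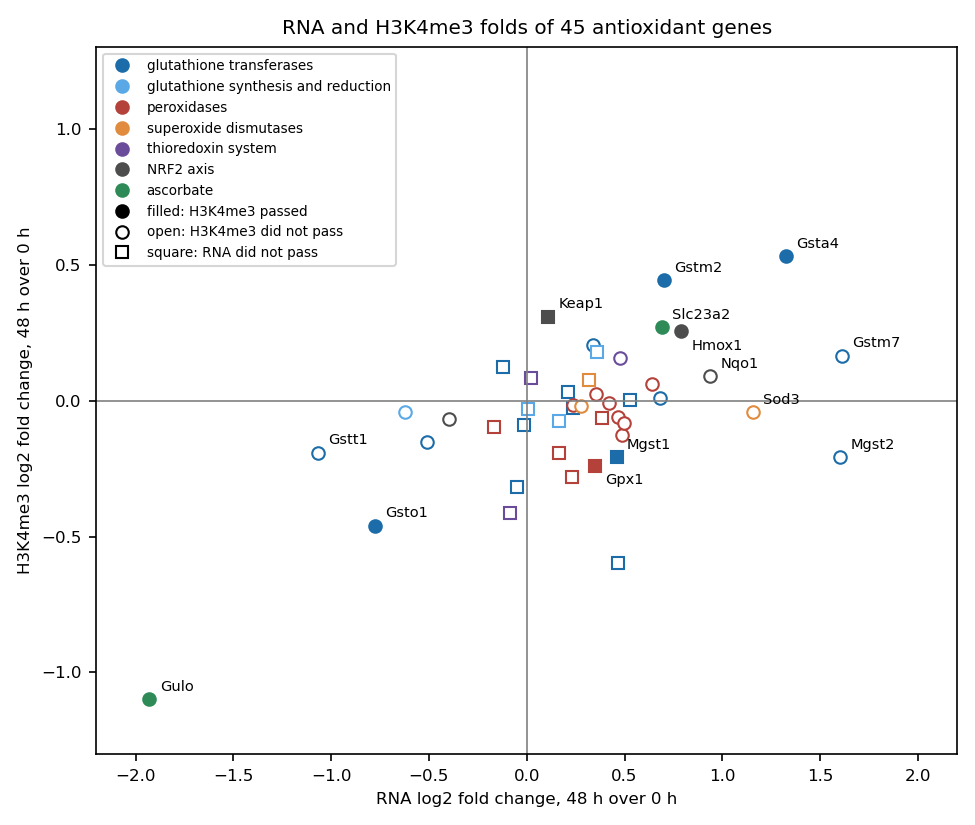
RNA log2 fold change (x axis) against H3K4me3 log2 fold change (y axis) for the 45 genes tested in RNA, coloured by role, with filled symbols where H3K4me3 passed and squares where RNA did not. Gulo lies apart at -1.93 and -1.10, and the RNA rises of Mgst2 (1.60) and Sod3 (1.15) lie at H3K4me3 log2 fold changes of -0.21 and -0.04.

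The library with the most endothelial marker RNA, 48 h replicate 1, had the highest level of the 6 libraries for 17 of the 45 genes, among them Mgst2, Sod3, Gstk1, Slc23a2, Mgst1, Gsta3, Gpx1 and Gpx3. Its Mgst1 level was 345 CPM against 229 and 234 CPM in the other 48 h libraries. Its Gpx3 level was 316 CPM against 230 and 255 CPM. The share of all genes that were highest in this library was not counted. Prdx5, also among the 17, differed little, with 70.7, 70.3 and 70.0 CPM in 48 h replicates 1 to 3. Beside these stand the endothelial sums given above, and a smooth muscle marker sum of 318 to 347 CPM at 0 h and 533, 220 and 274 CPM at 48 h, where 2 of 9 genes rose. Without 48 h replicate 1, the log2 fold changes were 0.48 for Gstk1, 0.24 for Mgst1, 0.18 for Gpx1 and 0.09 for Gpx3, and the sign of Gsta3 turned to -0.10. The part of these cells in the results was not tested. Prdx2, whose protein is abundant in red blood cells, and Hmox1, which handles their haem, had 330, 356 and 354 CPM and 44.0, 41.1 and 41.9 CPM in 48 h replicates 1 to 3. The red blood cell sum in those libraries was 550, 167 and 694 CPM. Without 48 h replicate 1 the log2 fold changes of Gulo, Gclc and Nfe2l2 were -2.08, -0.63 and -0.39, and that of Hmox1 was 0.76.

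**Figure D5:**
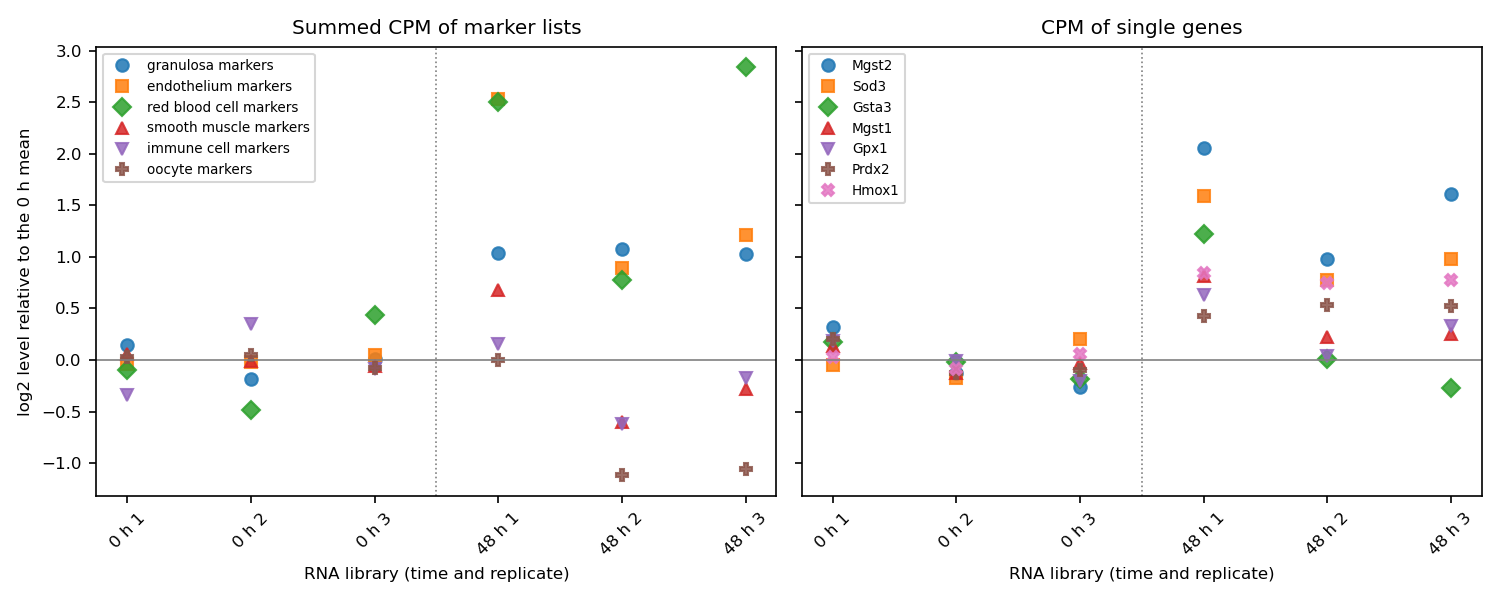
Level in each RNA library relative to the 0 h mean (y axis, log2) for summed marker lists (left) and single antioxidant genes (right), with libraries on the x axis and a dotted line between 0 h and 48 h. In 48 h replicate 1 the endothelial sum and Mgst2, Sod3, Gsta3 and Mgst1 reach their highest values, while the granulosa sum differs little among the 48 h libraries.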

How the data were processed

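The study's 11 samples are granulosa cell libraries: 6 of RNA, 4 of H3K4me3 and 1 input. Both deposited tables hold raw counts per gene ID (whole numbers, no normalization), as the file headers and values show. Per the submitters' processing notes, FastQC 0.11.5, Picard, STAR, kallisto and sleuth (RNA) and Trimmomatic, Bowtie2 2.2.9, MACS2 2.2 and ChIPseeker 1.18.0 (ChIP-seq) were used with mm10. What each tool did, whether strand was used and which H3K4me3 window was counted is not given in the sources used here. Names of H3K4me3 columns gave the group, and the number that ends each name served only to tell libraries apart.

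For each assay edgeR (4.0.16, in R 4.3.3) contrasted 48 h with 0 h by its quasi-likelihood test with TMM scaling, filterByExpr and Benjamini-Hochberg adjustment over all genes tested. The SE was derived from the test statistic, and it shares variation across genes. CPM use TMM scaling. The fit and the motif search were tested on simulated data. Alternatives were DESeq2 (1.42.0), its size factors, library size, no filter beyond 1 count, a replicate block and leaving out each library, 11 in RNA and 9 in H3K4me3. Chi-square per degree of freedom between replicates was 1.69 to 38.5, so each library counted once. Intervals and limits from counts cover counting error only.

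The 47 genes and all lists were chosen with earlier results of these data known. Values in every library were given for genes called in RNA with an absolute log2 fold of at least 0.5 and always for Gulo, Gclc, Gclm, Nfe2l2, Keap1 and Nqo1, and pathway genes were named from an absolute log2 fold of 1, others after their values were seen. Genes overlapping in the GRCm38.p6 gene table, and neighbours within 5000 bases with H3K4me3 counts within 20%, were named. RefSeq gave a promoter for 38 of the 47. Immune cell and surface epithelium marker lists had 0 and 0 genes higher in RNA by edgeR's test (0 and 1 lower).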

Additional observations from a re-analysis of the deposited data

How the results depend on the processing

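Of the 25 RNA calls, 15 held in all 11 alternatives and 10 were lost in some, with 0 reversed. Of the 9 H3K4me3 calls, those of Gsta4 and Gulo held in all 9 alternatives and 7 were lost in some. In RNA the genes called numbered 2882 to 5345 over the fits without 1 library (1580 to 2697 higher and 1228 to 2648 lower), and 11 to 25 of the 47 rose and 4 to 7 fell. The lowest member counts that rose were 12 without 0 h replicate 2 and 11 without 0 h replicate 3. In H3K4me3 they numbered 282 to 2764 (159 to 2070 higher, 123 to 694 lower), with 2 to 6 of the 47 higher and 1 to 7 lower, and the 282 came from leaving out 0 h replicate 1. Where an arm was left with 1 library, it was assumed to vary like the others. Scaling by library size alone put the median over all RNA genes at -0.20 instead of -0.03, with 4222 genes lower and 26.8% of calls higher instead of 50.2%. In H3K4me3 that scaling gave 945 higher and 862 lower, 52.3% higher instead of 75.4%. In H3K4me3, leaving out 0 h replicate 1 gave 56.4% higher.

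DESeq2 called 864 genes in H3K4me3 (611 higher, 253 lower), of the 47 genes 2 higher and 2 lower. The replicate block gave 3312 calls in RNA, with 6 members lost and 1 gained, and 1280 in H3K4me3 (908 higher), with 2 members lower. Same-numbered libraries had deviation correlations of -0.212, -0.149 and -0.127 in RNA and 0.0248 in H3K4me3. In RNA no library correlated best with its own number. Deviations were taken from the mean of each group's few libraries, which constrains these correlations. They therefore cannot decide whether the numbers pair the samples. The 90th percentile in place of the 95th gave an H3K4me3 background level of 4.37 CPM. TGANNNNGC matched 18 of the 38 genes with a window, a share close to that over all 27025 genes. The higher share among these genes was thus seen with TGACNNNGC only.

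Changes of sign occurred among genes that did not pass. In RNA, library size as the only scaling gave Cat -0.005, Gsr -0.164, Gss -0.0076, Txnrd2 -0.146 and Keap1 -0.0574 (log2). Mgst3 turned to 0.0102 with DESeq2 size factors, 0.0137 with DESeq2 and 0.002 with the replicate block. Over the fits without 1 library, the RNA log2 fold changes were -0.174 to 0.267 for Gstt3, -0.0084 to 0.0571 for Gsr, -0.102 to 0.746 for Gsta3, -0.109 to 0.148 for Txnrd2 and -0.152 to 0.182 for Mgst3. In H3K4me3, library size as the only scaling gave Gstm4 -0.0513, Gstm5 -0.0208, Prdx4 -0.0284 and Gstk1 -0.0448. DESeq2 size factors gave Gstm4 -0.0064 and Gstk1 -0.0001, DESeq2 gave -0.0059 and -0.0023, no filter beyond 1 count gave -0.0174 and -0.0111, and the replicate block gave Gstm4 -0.0001. Over the H3K4me3 fits without 1 library, the ranges were -0.0813 to 0.0564 for Prdx3, -0.127 to 0.0221 for Gclc, -0.12 to 0.0466 for Gsr, -0.127 to 0.0791 for Gstm1, -0.0842 to 0.0715 for Gstm4, -0.089 to 0.0236 for Sod2, -0.162 to 0.0552 for Sod3, -0.698 to 0.0071 for Txnrd1, -0.0526 to 0.0962 for Prdx4, -0.0836 to 0.034 for Prdx5, -0.0959 to 0.524 for Gstm7 and -0.058 to 0.0551 for Gstk1. The cause of these changes was not tested.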

Other observations

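Genes tied to the supply of NADPH, which glutathione reductase and thioredoxin reductase need, were read from a list of 8. Among them, Taldo1, Tkt and Pgls act in the pentose phosphate pathway without making NADPH themselves. In RNA, 5 of the 8 rose by edgeR's quasi-likelihood test (62.5%, against 16.0% of all genes). The other 3, Pgd, Pgls and Nnt, did not pass. The count that fell was 0 (0 at an unadjusted p under 0.05 and 0 with DESeq2). The median log2 fold change was 0.33. Me1, malic enzyme of the cytosol, had 262, 234 and 234 CPM at 0 h and 580, 541 and 518 CPM at 48 h (log2 1.17 ± 0.10, adjusted p = 2.04e-04). Idh1, isocitrate dehydrogenase of the cytosol, had 218, 212 and 199 CPM at 0 h and 454, 430 and 453 CPM at 48 h (log2 1.09 ± 0.09, adjusted p = 1.9e-04). In neither gene did the groups overlap. Of the pentose phosphate pathway, Taldo1 rose from 97.0 ± 11.02 to 174 ± 1.72 CPM (log2 0.84 ± 0.10), Tkt by 0.34 ± 0.11 and G6pdx, its first enzyme, by 0.31 ± 0.09 on the log2 scale. In H3K4me3, Me1 alone of the 8 passed, with 80.0 and 71.2 CPM at 0 h and 117 and 112 CPM at 48 h (log2 0.59 ± 0.07).

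Selenium is built into several of the glutathione peroxidases and the thioredoxin reductases. Of 6 genes of selenium supply, 1 rose, 1 fell and 4 did not pass in RNA. That is 16.7% in each direction, against 16.0% and 15.8% of all genes. Lrp8, a receptor for selenoprotein P, had 56.1, 90.6 and 103 CPM at 0 h and 145, 140 and 129 CPM at 48 h (log2 0.73 ± 0.19, adjusted p = 0.0199), and its H3K4me3 count rose too (log2 0.48 ± 0.07). Secisbp2, which binds the RNA element that directs selenocysteine insertion, fell from 39.6 ± 1.46 to 29.3 ± 1.64 CPM (log2 -0.43 ± 0.09, adjusted p = 0.00627). Selenop, which encodes selenoprotein P, was 205, 191 and 184 CPM at 0 h and 192, 119 and 137 CPM at 48 h and did not pass in RNA (log2 -0.37, adjusted p = 0.11). Its H3K4me3 count fell from 51.1 and 52.0 CPM to 34.4 and 33.7 CPM (log2 -0.60 ± 0.08).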
